A study of Danio rerio with 24 samples.

Results

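The pituitary hormone genes were examined in RNA from whole brains of adult zebrafish. They comprise gh1, prl, smtla, smtlb, pomca, tshba, lhb, fshb and cga, chosen by name, with earlier results of these data known. All 9 genes were found among the 37241 Ensembl genes of the count table, under 10 identifiers, because cga is listed under both ENSDARG00000040479 and ENSDARG00000103345. The older symbols POMC and TSHB gave pomca (ENSDARG00000043135) and tshba (ENSDARG00000033726). The remaining identifiers were ENSDARG00000038185 for gh1, ENSDARG00000037946 for prl, ENSDARG00000038191 for smtla, ENSDARG00000017251 for smtlb, ENSDARG00000099363 for lhb and ENSDARG00000010841 for fshb. Below, cga stands for ENSDARG00000040479 unless the second identifier is named.

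The study deleted neurexin genes, which encode synaptic adhesion molecules, in pairs by CRISPR/Cas9 and compared the brains of homozygous double mutants with wild-type (wt) brains. The lines described here were nrxn2a_full:nrxn2b_full, nrxn2a_tmr:nrxn2b_tmr, nrxn3a_full:nrxn3b_full and nrxn3a_tmr:nrxn3b_tmr, set against wt, and are written as nrxn2 full, nrxn2 tmr, nrxn3 full and nrxn3 tmr. Each of these 5 genotypes had 3 libraries, 15 in all. "Full" lines lack the whole gene and "tmr" lines lack the transmembrane region. All fish, wt included, were adults of the AB background. The fish's sex and the number of brains in a library are not given in the sources used here, so p-values refer to the spread among libraries and may in part reflect technical spread. Each line is a single set of deletion alleles, so a difference between a line and wt cannot be told apart from other differences between those colonies.

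The pituitary hangs beneath the hypothalamus on a stalk, and each of its endocrine cell types is known by the hormone it makes. Somatotropes make growth hormone (gh1), lactotropes make prolactin (prl), and the somatolactin cells of fish make smtla and smtlb, which belong to the same hormone family. Gonadotropes make the beta chains of luteinising hormone (lhb) and follicle-stimulating hormone (fshb), and thyrotropes make the beta chain of thyrotropin (tshba). Each beta chain pairs with the common alpha chain encoded by cga. Corticotropes and melanotropes make pro-opiomelanocortin (pomca), the precursor of adrenocorticotropin and of melanocyte-stimulating hormone, which neurons of the hypothalamus also make.

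Brains were excised whole after removal of the eyes and opening of the skull, a dissection that can keep or lose the pituitary, and the levels were therefore read library by library. Total counts ran from 28512102 to 38016650 per library, so that 3 reads, taken as the floor for a count of 0, correspond to a CPM of 0.0789 to 0.105. The upper end of a 95% two-sided Poisson interval for a count of 0 is 3.69 reads. Such limits and the intervals below cover counting error only, since reads amplified by PCR are not independent molecules. In whole-brain RNA, fewer cells of a type and less RNA per cell cannot be told apart. Of the transcription factors that define pituitary lineages, pou1f1 had no read in any of the 15 libraries, and tbx19, lhx3 and pitx1 had 0 to 16, 3 to 76 and 6 to 32 reads. The name pituitary hormone genes therefore refers only to where these genes are known to be active. Over the 15 libraries gh1 had 1 read, smtla 2 and tshba 5, and hypothalamic neurons also make pomca. Whether the reads of the hormone genes came from pituitary tissue was not tested. The wt libraries, which every line was compared with, also differed in summed marker transcripts of tissues at the edge of the brain. Whether the tissue kept at dissection differed was not tested. The summed normalised counts of the retina and photoreceptor list ranged from 423 to 24692 in the 12 mutant libraries and were 13743, 41194 and 63840 in wt. The pineal list summed to 277 to 10010 in the mutant libraries and to 8399, 16496 and 9235 in wt replicates 1, 3 and 5. In the retina list the symbol rho matched several identifiers, and whether the reads of that list came from retina or pineal was not tested. The skeletal muscle list summed to at most 324 in the mutant libraries and to 226, 289 and 4359 in wt, the last in replicate 1.

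The hormone genes of somatotropes and thyrotropes and one of the somatolactins were at or near the limit of detection. Growth hormone (gh1) gave 1 read, in nrxn3 full replicate 3, and none in the other 14 libraries, all of wt included. The somatolactin smtla gave 1 read each in nrxn2 full replicate 2 and nrxn3 full replicate 3, and none elsewhere. The thyrotropin chain tshba gave 3 reads and 1 read in replicates 2 and 3 of nrxn2 tmr and 1 in nrxn3 full replicate 4, and none in the other 12 libraries. The second cga identifier had no read in any of the 15 libraries. Reads that fit both cga identifiers were not examined, so the level of cga, read below from the first alone, is uncertain to that extent. With so few reads no difference between genotypes in gh1, smtla or tshba was detectable, and none of them reached the 10 reads in 3 libraries that the test required.

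**Figure D1:**
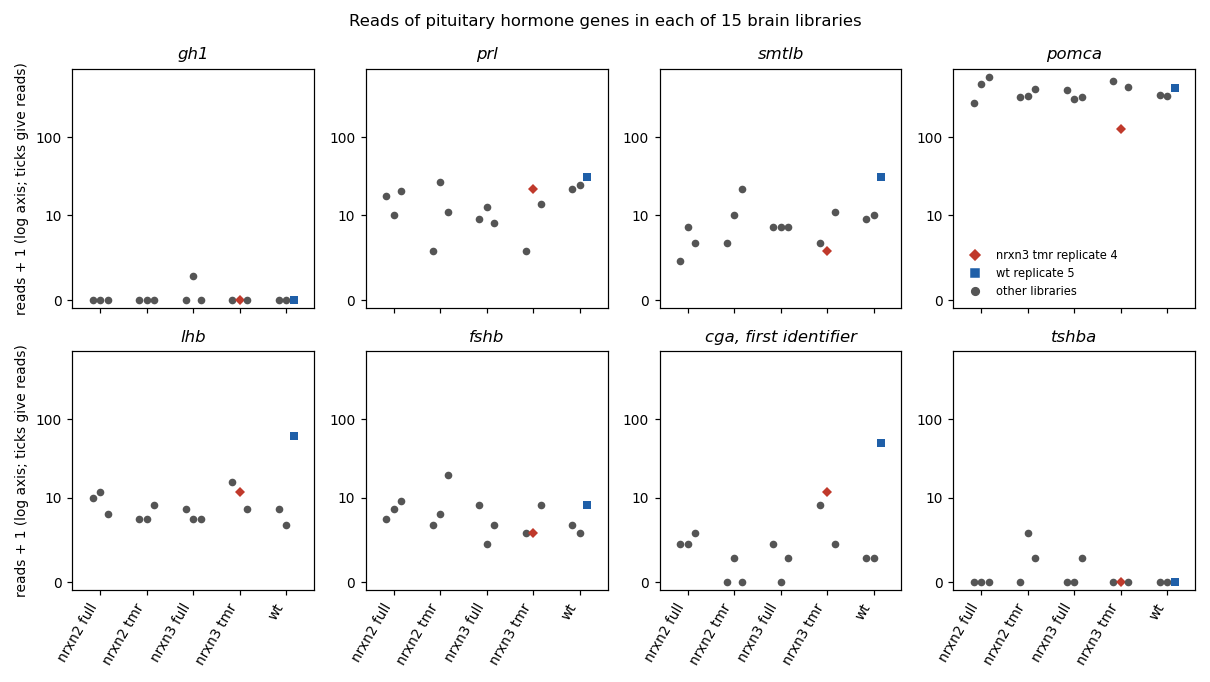
Reads of 8 pituitary hormone genes in each of 15 libraries, by genotype, on a log axis of reads + 1. The blue square, wt replicate 5, stands apart for cga (51 reads) and lhb (62), gh1 and tshba lie at or near 0 throughout, and the red diamond, nrxn3 tmr replicate 4, has the fewest pomca reads (126).

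The other somatolactin, smtlb, had reads in all 15 libraries. There were 2, 7 and 4 reads in nrxn2 full, 4, 10 and 22 in nrxn2 tmr, 7 in each library of nrxn3 full, and 4, 3 and 11 in nrxn3 tmr, against 9, 10 and 32 in wt. In nrxn2 full and nrxn3 full all normalised counts, which are reads divided by each library's size factor (0.852 to 1.16), lay below those of wt. Such a separation in this direction held for 12% of the genes tested in nrxn2 full and for 13.9% in nrxn3 full. The means were 4.14 ± 2.45 in nrxn2 full and 7.22 ± 0.371 in nrxn3 full, against 17 ± 11.4 in wt (SD, n = 3 each). The log2 fold change was -2.02 ± 0.93 in nrxn2 full (SE; edgeR unadjusted p = 0.0442, adjusted p = 0.179) and -1.23 ± 0.89 in nrxn3 full (edgeR adjusted p = 0.477), neither past the threshold of 0.05. The wt mean leaned on replicate 5, which was 3.29-fold and 2.56-fold above replicates 1 and 3 in normalised counts and 1.35-fold above the highest mutant library, nrxn2 tmr replicate 3.

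The alpha chain cga showed the widest relative range of the hormone genes with reads in most libraries. It gave 2, 2 and 3 reads in nrxn2 full, 0, 1 and 0 in nrxn2 tmr, 2, 0 and 1 in nrxn3 full, and 8, 12 and 2 in nrxn3 tmr, against 1, 1 and 51 in wt. A single wt library thus held nearly all of the wt reads. It was 47.2-fold and 40.9-fold above wt replicates 1 and 3 and 3.81-fold above nrxn3 tmr replicate 4, the next highest library. In nrxn2 tmr all normalised counts lay below wt, as they did for 14.2% of genes, at 0.288 ± 0.498 against 16.7 ± 27.1 in wt (SD, n = 3 each). This separation rested on the size factors, because nrxn2 tmr replicate 2 and wt replicates 1 and 3 each had 1 read. The log2 fold change in nrxn2 tmr was -5.31 ± 2.56 (edgeR unadjusted p = 0.0528, adjusted p = 0.226), and it was -1.49 (edgeR adjusted p = 0.874) without wt replicate 5.

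The luteinising hormone chain lhb was high in the same wt library. It had 10, 12 and 6 reads in nrxn2 full, 5, 5 and 8 in nrxn2 tmr, 7, 5 and 5 in nrxn3 full, and 16, 12 and 7 in nrxn3 tmr, against 7, 4 and 62 in wt. Unlike cga, it was detected in every library, and all 4 lines overlapped wt. Replicate 5 of wt was 8.20-fold and 12.4-fold above its mates and 3.36-fold above nrxn3 tmr replicate 3, the next highest. The follicle-stimulating hormone chain fshb did not share that pattern. It had 5, 7 and 9 reads in nrxn2 full and 4, 6 and 20 in nrxn2 tmr. There were 8, 2 and 4 in nrxn3 full and 3, 3 and 8 in nrxn3 tmr, against 4, 3 and 8 in wt.

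Between the nrxn3 lines, cga and lhb were ordered alike and fshb was not. The 3 libraries of nrxn3 full lay below those of nrxn3 tmr for both cga (1.01 ± 0.978 and 7.76 ± 5.36 normalised counts) and lhb (5.81 ± 0.900 and 12.3 ± 5.20; SD, n = 3 each), a separation that 12.4% of genes showed in this direction. It rested on the size factors, because nrxn3 full replicate 2 and nrxn3 tmr replicate 5 had the same reads, 2 for cga and 7 for lhb. For fshb the lines overlapped, with 7.81, 2.07 and 4.33 in nrxn3 full and 3.26, 3.15 and 7.99 in nrxn3 tmr. The log2 fold changes of nrxn3 full over nrxn3 tmr were -2.77 ± 2.33 for cga (edgeR adjusted p = 0.658) and -1.06 ± 1.19 for lhb (edgeR adjusted p = 0.773). Between the nrxn2 lines cga was ordered the other way, with 2.22 ± 0.577 in nrxn2 full and 0.288 ± 0.498 in nrxn2 tmr, where 14.7% of genes did not overlap in this direction, and a log2 fold change of 2.44 ± 3.01 (edgeR adjusted p = 0.655). None of these differences passed the test, at 0 to 16 reads per library.

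Over the 15 libraries, log2(normalised count + 1) of cga and lhb had a Pearson r of 0.88 and a Spearman rho of 0.67, given as a description since few libraries hold high values. Without wt replicate 5, r was 0.72 over 14 libraries, and after subtraction of each genotype's mean it was 0.85. The somatolactin smtlb followed these chains less closely, with r of 0.13 to cga and 0.33 to lhb, or -0.49 and -0.31 without wt replicate 5. After subtraction of genotype means they were 0.23 and 0.43. To fshb, smtlb had r of 0.49, and of 0.78 after that subtraction. Replicate 3 of nrxn2 tmr was high in both, at 22.2 for smtlb and 20.2 for fshb. The summed level of the pituitary transcription factors (pou1f1, tbx19, lhx3 and pitx1) had r of 0.68 to fshb (Spearman rho 0.60), 0.38 to pomca, 0.28 to smtlb, 0.24 to lhb, 0.11 to prl and -0.01 to cga. After subtraction of genotype means these were 0.63, 0.40, 0.56, 0.46, 0.03 and 0.26. The sum was 23.4, 32.9 and 48.9 normalised counts in wt and was highest, at 92.0, in nrxn2 tmr replicate 3, where lhx3 alone gave 76.8. That library also had the highest fshb, at 20.2, and the r of the sum to fshb without it was not computed.

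Ratios between hormone transcripts could be read in the 2 libraries with at least 10 cga reads. The ratio of lhb to cga reads was 1 (95% exact Clopper-Pearson interval 0.411 to 2.43) in nrxn3 tmr replicate 4 and 1.22 (0.826 to 1.80) in wt replicate 5. For smtlb it was 0.25 (0.0453 to 0.926) in nrxn3 tmr replicate 4 and 0.627 (0.39 to 0.995) in wt replicate 5. The intervals overlapped for both. With no gh1 read in either library, the upper limits were 0.360 and 0.0750 gh1 reads per cga read. Reads were not divided by transcript length, so these ratios compare libraries and not the levels of the genes.

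**Figure D2:**
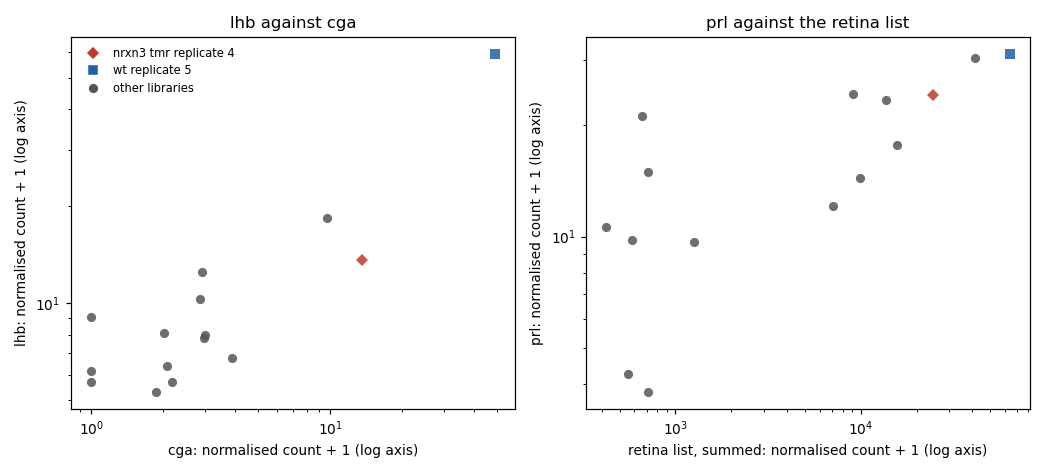
lhb against cga (left) and prl against the summed retina list (right) in 15 libraries, as normalised count + 1 on log axes. wt replicate 5 is the highest in both panels, and without it r was 0.72 for the left panel and 0.69 for the right.

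In contrast, pomca was abundant in every library and gave most of the hormone reads. It accounted for a median of 90.9% of the reads of the 9 genes, from 68.4% (95% Wilson interval 64.5% to 72.0%) in wt replicate 5 to 95.1%. Leaving pomca aside, the others gave 16 to 62 reads per library in 14 libraries and 185 in wt replicate 5. Of those remaining reads prl took a median of 33.3%, smtlb 20.9%, lhb 19.2%, fshb 13.5% and cga 4.76%.

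The normalised counts of pomca were 244, 430 and 533 in nrxn2 full, 293, 279 and 398 in nrxn2 tmr, 371, 304 and 337 in nrxn3 full, and 533, 132 and 419 in nrxn3 tmr, against 332, 379 and 376 in wt. No line was separated from wt. The means were 402 ± 146 in nrxn2 full, 323 ± 65.2 in nrxn2 tmr, 337 ± 33.6 in nrxn3 full and 362 ± 207 in nrxn3 tmr, against 363 ± 26.2 in wt (SD, n = 3 each). The log2 fold changes against wt ran from -0.16 to 0.15, each with an SE of 0.34 to 0.35 (edgeR adjusted p of 0.829 to 0.999). The spread within a line was the more visible feature: the highest library was 4.03-fold above the lowest in nrxn3 tmr and 2.18-fold in nrxn2 full, compared with 1.14-fold in wt. Normalised pomca moved against the retina list over the 15 libraries, with r of -0.51, and of -0.73 after subtraction of genotype means. The lowest pomca library, nrxn3 tmr replicate 4, had a retina sum of 24692, against 553 and 711 in its mates. Its pineal sum was also higher, at 6251 against 277 and 299. The part of either list in the pomca values was not tested.

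**Figure D3:**
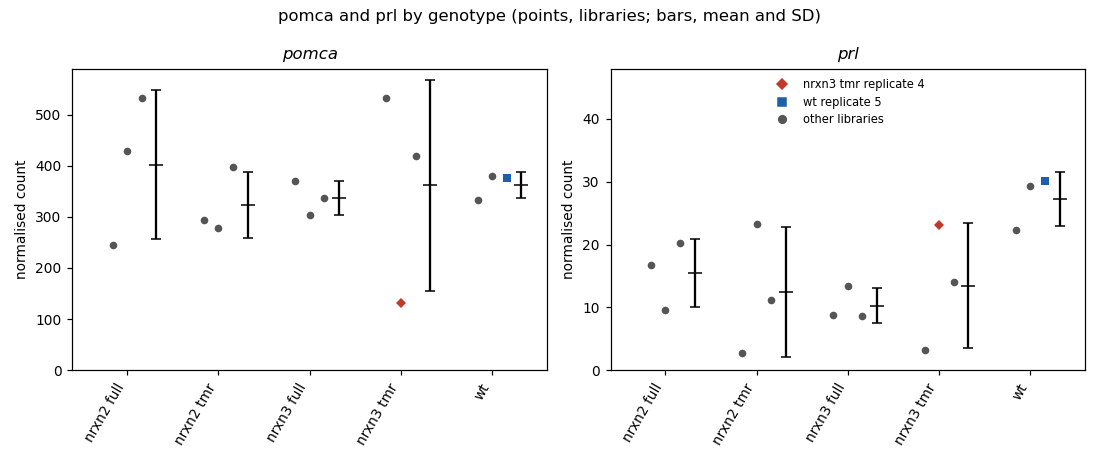
Normalised counts of pomca (left) and prl (right) in each library, with mean and SD of the 3 libraries of a genotype. For pomca every line overlaps wt and nrxn3 tmr spreads from 132 to 533, and for prl all nrxn2 full and nrxn3 full libraries lie below the wt libraries.

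Prolactin transcripts were scarce but present in all libraries, with 3 to 32 reads. Normalised counts of prl were 16.7, 9.61 and 20.2 in nrxn2 full, 2.81, 23.3 and 11.1 in nrxn2 tmr, 8.79, 13.4 and 8.66 in nrxn3 full, and 3.26, 23.1 and 14 in nrxn3 tmr, against 22.4, 29.3 and 30.1 in wt. The mean was below that of wt in all 4 lines, which share the wt libraries. In nrxn2 full and nrxn3 full the libraries did not overlap wt, which in this direction held for 12% and 13.9% of the genes tested.

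The difference in prl passed no test. The lowest mean, 10.3 ± 2.72 in nrxn3 full against 27.3 ± 4.27 in wt (SD, n = 3 each), gave a log2 fold change of -1.39 ± 0.61 (edgeR unadjusted p = 0.0346, adjusted p = 0.186). In nrxn2 full, nrxn2 tmr and nrxn3 tmr the log2 fold changes were -0.81 ± 0.59, -1.12 ± 0.60 and -1.01 ± 0.60 (edgeR adjusted p = 0.412, 0.284 and 0.369). In the tmr lines the size rested on single libraries: it was -0.65 in nrxn2 tmr without its replicate 1 and -1.96 without replicate 2, and -0.55 in nrxn3 tmr without its replicate 3 and -1.64 without replicate 4. The level of prl moved with the retina list, with a Pearson r of 0.74 and a Spearman rho of 0.75 over 15 libraries, and with r of 0.68 after subtraction of genotype means. The retina sums were 584, 9890 and 1259 in nrxn3 full, against 13743, 41194 and 63840 in wt. The pineal sums were 331, 9511 and 318 in nrxn3 full, against 8399, 16496 and 9235 in wt. The part of either list in the prl values was not tested.

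Taking the 5 identifiers with at least 10 reads in at least 3 libraries (prl, smtlb, pomca, lhb and cga), none was called in any of the 4 lines against wt at an edgeR adjusted p under 0.05. Of the 23641 genes tested, 9.65% were called in nrxn2 full, 8.48% in nrxn2 tmr, 8.13% in nrxn3 full and 7.32% in nrxn3 tmr. Of the 20 pairs of an identifier and a line, 2 had an unadjusted p under 0.05 by edgeR, prl in nrxn3 full and smtlb in nrxn2 full, and the lowest adjusted p was 0.179. DESeq2 also called 0 of them, with 2 at an unadjusted p under 0.05 and 8 without an adjusted p. The other 5 identifiers, fshb among them, had too few reads to be tested.

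Between the full and the tmr line of the same genes, 0 of the 5 identifiers were called by edgeR or by DESeq2, with 0 of 10 pairs at an unadjusted p under 0.05 by either tool and 4 without an adjusted p by DESeq2. The lowest edgeR adjusted p was 0.346, for smtlb in nrxn2 full over nrxn2 tmr (log2 fold change -1.44 ± 0.94). In these comparisons 11.9% of genes were called between nrxn2 full and nrxn2 tmr (5.91% higher and 5.95% lower in nrxn2 full) and 4.77% between nrxn3 full and nrxn3 tmr (2.32% higher and 2.45% lower in nrxn3 full).

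The comparisons of cga and lhb with wt leaned on wt replicate 5, and 4 of the 8 turned without it. With all libraries, the log2 fold changes against wt were -2.87 ± 2.00 for cga and -1.40 ± 1.12 for lhb in nrxn2 full, and -1.12 ± 1.76 for cga and -0.94 ± 1.1 for lhb in nrxn3 tmr. Without wt replicate 5 they were 0.95 for cga and 0.57 for lhb in nrxn2 full, and 2.69 for cga and 1.03 for lhb in nrxn3 tmr. In nrxn3 full they were -3.90 ± 2.24 for cga and -2 ± 1.17 for lhb with all libraries, and -0.08 for cga and -0.03 for lhb without that library. In nrxn2 tmr, lhb was at -2.04 ± 1.16 with all libraries and -0.07 without that library, and cga kept its sign as given above. None of these passed the threshold (edgeR adjusted p of 0.226 to 0.796 with wt replicate 5 and of 0.603 to 0.996 without it). The hypothalamus list was also highest in wt replicate 5, at 39941 against 15404 to 39165 in the mutant libraries, as was the retina list, and their part was not tested.

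Paralogues of prl and pomca were present in all 15 libraries. The prolactin-like gene prl2 had 242, 162 and 502 normalised counts in nrxn3 tmr, against 107, 98.6 and 119 in wt, and 38.8 to 123 in the other lines. All nrxn3 tmr libraries lay above all others, and the share of genes that do so was not computed. Against wt alone the means were 302 ± 178 and 108 ± 10.5 (SD, n = 3 each), and 13% of genes did not overlap wt in this direction in nrxn3 tmr. The prl2 gene was called in no line. The second pro-opiomelanocortin gene, pomcb, had 25.4 to 64.1 normalised counts and was also called in no line.

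The genes most like the mean z-score of the 5 tested identifiers, by correlation over 15 libraries among 17674 genes, were DGAT1 (r = 0.89), DROSHA (r = 0.85) and MAPK8IP1 (r = 0.85), and without wt replicate 5 these gave 0.58, 0.48 and 0.63. SLC30A1 (r = 0.84) and si:ch211-117c9.5 (r = 0.83) came next. CRH, the hypothalamic peptide that drives corticotropes, ranked 6th, with r of 0.83 and of 0.84 without wt replicate 5. Closest to pomca were GSX1 (r = 0.84), a homeobox gene, NR0B1 (r = 0.84), which encodes an orphan nuclear receptor of the endocrine axes, and nlrb5 (r = 0.83). Closest to prl were zgc:110045 (r = 0.87), CLDN2 (r = 0.82) and TMEM222 (r = 0.82). First for smtlb, lhb and cga were DAXX (r = 0.88), KCNK15 (r = 0.87) and znf526 (r = 0.90). How high r would reach by chance among so many genes and so few libraries was not tested.

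The genes around the hormones in their axes were read from lists of factors that control the pituitary, of receptors on its cells, of hormone receptors in target tissues and of the machinery that cuts and stores prohormones. Among 26 hypophysiotropic factors, 0 to 2 were higher and 0 to 4 lower in a line than in wt. Among 20 receptors of pituitary cells, 0 to 1 were higher and 0 to 2 lower, and among 21 hormone receptors and targets, 1 was higher in each line and 0 to 1 lower. Of the former, sstr5 was higher in nrxn3 full (log2 fold change 1.52) and nrxn3 tmr (1.35), and thrb (-0.46) and ghrhra (-1.34) were lower in nrxn2 full. Of the latter, tshr was the higher gene in nrxn2 tmr, nrxn3 full and nrxn3 tmr. In nrxn2 full, dio1 was higher (1.06, edgeR adjusted p = 0.0193) and ghra lower (-2.24, edgeR adjusted p = 0.0148). Among 14 genes of prohormone processing, 0 to 1 were higher and 0 to 2 lower, and among 15 lineage factors, 0 to 1 and 0 to 1. The processing gene pcsk1nl was lower in nrxn2 tmr (-0.43) and nrxn3 full (-0.49), and an identifier matched to furina was higher in nrxn3 full (0.31). Identifiers were counted singly, and the lower processing genes of both nrxn3 lines include an identifier of scg5, treated below. Both identifiers matched to nucb2a count as higher hypophysiotropic factors in nrxn3 tmr. They were matched only through the older symbol nucb2, and whether both are that gene was not checked. The normalised counts of the prohormone processing list, summed per library, were lower in all 12 mutant libraries (139758 to 163229) than in wt (167989 to 187599), a sum weighted to its most abundant genes and not tested. These counts stand against 4.57% of all genes tested that were higher and 5.08% that were lower in nrxn2 full, 3.71% and 4.77% in nrxn2 tmr, 3.95% and 4.19% in nrxn3 full, and 3.61% and 3.71% in nrxn3 tmr. The median log2 fold change of each list stayed between -0.28 and 0.10 in every line, beside -0.01 to 0.00 over all genes.

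The receptor of thyrotropin departed from this. The tshr gene had 564, 547 and 456 normalised counts in nrxn3 full, against 21.3, 29.3 and 20.7 in wt. No other genotype exceeded 83.7, and nrxn3 tmr had 52.1, 56.6 and 53.9. The log2 fold change in nrxn3 full was 4.45 ± 0.32 against wt (edgeR adjusted p = 2.87e-08) and 3.26 ± 0.30 against nrxn3 tmr (edgeR adjusted p = 8.84e-07). It was also higher in nrxn2 tmr, at 62.8, 83.7 and 81.9 (log2 fold change 1.68 ± 0.29, edgeR adjusted p = 0.00135). In nrxn2 full it was not called, at 52.9, 34.6 and 33.7, all above wt, a separation that 12.3% of genes showed in this direction. All 4 lines thus lay above the same 3 wt libraries, and the share of genes that do so was not computed. The smaller difference of tshr in nrxn3 tmr (1.19 ± 0.29, edgeR adjusted p = 0.0161) was lost without wt replicate 1 (0.0621) or wt replicate 5 (0.0579) and with only the 6 libraries compared (0.0745). In the RefSeq annotation of another assembly, GRCz12tu, tshr and nrxn3b lie on chromosome 20 with 2 protein-coding gene starts between theirs, and nrxn3b is deleted in nrxn3 full. The part of the deletion in the tshr level was not tested. The chains of its ligand, tshba and cga, had at most 2 reads in any nrxn3 full library.

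**Figure D4:**
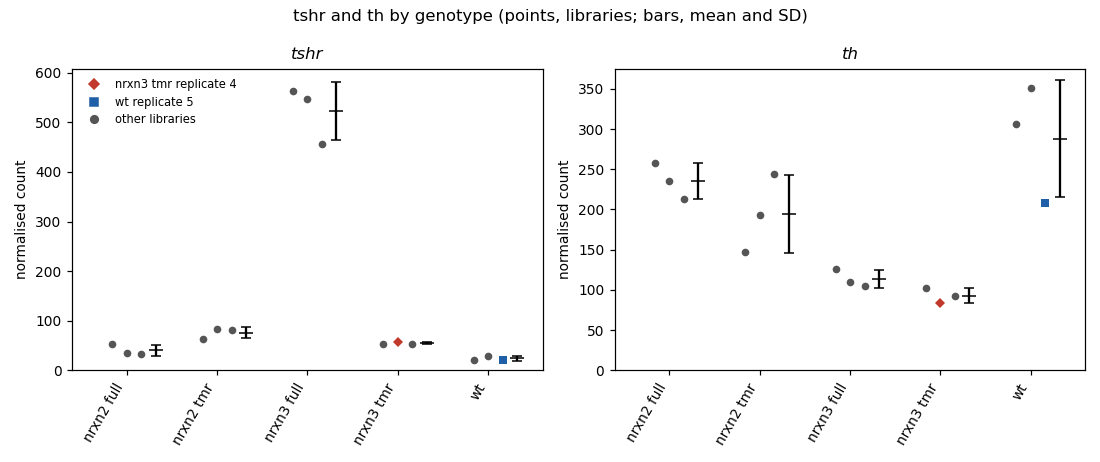
Normalised counts of tshr (left) and th (right) in each library, with mean and SD of the 3 libraries of a genotype. For tshr the nrxn3 full libraries lie at 456 to 564 and all others at 83.7 or below, and for th both nrxn3 lines lie at 83.9 to 126, below wt at 208 to 351.

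Among genes that act upstream of the hormones, th, the tyrosine hydroxylase of dopamine neurons, which restrain prolactin, had 126, 110 and 105 normalised counts in nrxn3 full and 102, 83.9 and 91.9 in nrxn3 tmr, against 306, 351 and 208 in wt. It fell in both lines, with log2 fold changes of -1.34 ± 0.22 in nrxn3 full and -1.64 ± 0.22 in nrxn3 tmr (edgeR adjusted p = 0.000858 and 0.000153). It averaged 235 ± 22.7 in nrxn2 full and 195 ± 48.3 in nrxn2 tmr, against 288 ± 73.2 in wt (SD, n = 3 each). The prl gene was not called in any of these lines.

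Of the hypophysiotropic factors, tac3b and agrp were at or near 0 in one tmr line each. The neurokinin gene tac3b, whose peptide acts on gonadotropin-releasing neurons in mammals, had 0 reads in all 3 libraries of nrxn3 tmr, against 65, 17 and 70 in wt. It was at least 50.3-fold lower at a floor of 3 reads over the group (edgeR adjusted p = 0.00593). It was also at 0 in replicates 2 and 3 of nrxn2 tmr and present in all other libraries. The appetite peptide gene agrp had 0, 1 and 1 reads in nrxn2 tmr, against 5, 27 and 14 in wt (log2 fold change -4.48 ± 0.98, edgeR adjusted p = 0.00780). Other factors of this list were called higher. An identifier matched to nucb2a, ENSDARG00000036299, was above wt in nrxn2 tmr (log2 fold change 0.78, edgeR adjusted p = 0.00372), nrxn3 full (0.52) and nrxn3 tmr (0.56). The other identifier so matched, ENSDARG00000036291, which may be a different gene, was called higher in nrxn3 tmr (0.45), and npy in nrxn3 full (0.46). Also called lower were vip and kiss2 in nrxn2 tmr, kiss1 in nrxn3 full and vip in nrxn3 tmr.

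The oxytocin gene oxt, whose neurons project to the posterior pituitary, had 3681, 4573 and 11007 normalised counts in nrxn2 tmr, against 19006, 10638 and 26275 in wt, so that the groups overlapped in 1 library of each. The log2 fold change was -1.54 ± 0.41 (edgeR adjusted p = 0.0259), a call lost under 6 of 31 alternatives, with wt replicate 1 (0.0564) or wt replicate 5 (0.103) left out among them. The homeobox gene pitx3, listed with the lineage factors, averaged 44.9 ± 0.861 in nrxn3 tmr and 98.0 ± 5.54 in wt (SD, n = 3 each), a log2 fold change of -1.12 ± 0.19 (edgeR adjusted p = 0.00102). In the same list gata2a was called higher than wt in nrxn3 tmr (log2 fold change 0.41, edgeR adjusted p = 0.0122). It was also called higher in nrxn2 full (0.33), and isl1a was called lower in nrxn2 tmr (-0.42).

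Of the processing genes, scg5, which encodes a chaperone of a prohormone convertase, is listed under both ENSDARG00000032126 and ENSDARG00000077045. In the nrxn3 lines the second was called lower than wt and the first had more reads than in wt. The sum of both overlapped wt and was not tested. The second identifier had 3, 0 and 24 reads in nrxn3 full and 9, 20 and 15 in nrxn3 tmr, against 1027, 2007 and 1040 in wt, with log2 fold changes of -7.26 ± 1.74 in nrxn3 full and -6.57 ± 1.66 in nrxn3 tmr (edgeR adjusted p = 0.0151 and 0.0212). The first had 2208, 1942 and 1819 reads in nrxn3 full and 1997, 1716 and 2033 in nrxn3 tmr, against 685, 12 and 887 in wt, and was called in neither line. In nrxn2 full the first had 1113, 20 and 1240 reads and the second 1140, 2493 and 1235. In nrxn2 tmr the first had 970, 971 and 16 reads and the second 1162, 1168 and 2096. The normalised counts of both identifiers summed to 2054 ± 91.3 in nrxn3 full and 2015 ± 181 in nrxn3 tmr, against 1974 ± 345 in wt (SD, n = 3 each), and to 1740 to 2415 in every library. The paper counted reads per gene with the GeneCounts mode of STAR. Reads that fit both identifiers were not examined here, so the level of each alone, and of their sum, is uncertain.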

How the data were processed

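The deposited counts were made by the authors, per gene and not normalised, with, according to the submitters' processing notes, STAR 2.7.11b on GRCz11 with the Ensembl annotation, after quality checks with FastQC 0.11.9 and MultiQC 1.9 and trimming with Trimmomatic 0.39, for 24 poly(A) libraries of whole adult brain made with a stranded kit. Which strand column was kept is not stated in the sources read, so reads of genes that overlap on opposite strands are uncertain. Symbols were matched for 29201 of 37241 identifiers (78.4%). Groups and replicate numbers came from the labels.

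Counts were normalised by DESeq2 1.42.0 size factors. A gene was kept if 3 libraries or more reached 10 counts, and the 23641 kept were tested in edgeR 4.0.16 (R 4.3.3; robust quasi-likelihood, 1 coefficient per genotype, all 24 libraries, 9 of which belong to lines not reported here), with Benjamini-Hochberg adjustment over all of them and a threshold of 0.05. The fit was tested on simulated data, in which only genes with a mean of at least 20 normalised counts were changed. Over the 15 libraries prl, lhb, smtlb and cga averaged 15.8, 11.2, 9.21 and 5.60, so the simulation was not taken to cover them. Correlations used log2(normalised count + 1) in Python 3.11.15, and likeness a mean of at least 20. The text names the 9 hormone genes, up to 4 genes of lowest adjusted p per list and comparison, and up to 10 genes most correlated with the hormone genes together and 3 with each. The list genes and correlated genes shown are a choice among these, made with their values known. The alternatives were TMM factors, the DESeq2 test, other count filters, the replicate number as a block, the summed pituitary transcription factors as a covariate, only the libraries compared, and the omission of each library. The members and lists were chosen with earlier results of these data known. Sequences, transcript lengths and an annotation of GRCz11 were not used here. Libraries of a genotype differed beyond sampling noise (chi-square per degree of freedom 22.2 to 55.6 over 15 pairs).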

Additional observations from a re-analysis of the deposited data

Results flagged for a closer look

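For tshr, tac3b, pitx3 and oxt, described above, the test of the full against the tmr line of the same neurexin genes passed the threshold. The thyrotropin receptor tshr was higher in nrxn3 full than in nrxn3 tmr (log2 difference 3.26, edgeR adjusted p = 8.84e-07) and lower in nrxn2 full than in nrxn2 tmr (-0.91, edgeR adjusted p = 0.0417), a call lost under 11 of 31 alternatives. The tac3b gene was higher in nrxn3 full, with 23, 24 and 49 reads, than in nrxn3 tmr, with 0 in each library (fitted log2 difference 8.09, edgeR adjusted p = 0.0139), which is at least 31.6-fold at a floor of 3 reads over the group. The pitx3 gene was higher in nrxn3 full than in nrxn3 tmr (0.66, edgeR adjusted p = 0.0499), a call lost under 23 of 31. The oxt gene was higher in nrxn2 full than in nrxn2 tmr (1.47, edgeR adjusted p = 0.0276), a call lost under 5 of 31. Other genes of these lists that passed it were ghra, igf2b, nucb2a (ENSDARG00000036299) and crhr1 between the nrxn2 lines. Between the nrxn3 lines they were npy, crha, vip, igfbp1a and furina (ENSDARG00000070971). Each line is 1 set of alleles, so allele and colony cannot be told apart.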

How the results depend on the processing

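The reads of gh1, smtla and tshba were too few for their genotypes to be compared. Whether depth or tissue lost at dissection lay behind this was not tested. The count of hormone genes called in a line against wt, or between full and tmr lines, was 0 under every alternative and without each library in turn. Where 3 libraries had to reach 50 counts, pomca alone of the hormone genes was left to test.

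Same-numbered libraries were not shown to be paired: deviations from the genotype mean correlated with a median r of -0.00783 over 18 pairs with the same number and of 0.00588 over 72 with other numbers. With the number as a replicate block, 0 hormone genes were called in either kind of comparison, and of the list genes described tshr in nrxn2 full against nrxn2 tmr (edgeR adjusted p = 0.0640), pitx3 in nrxn3 full against nrxn3 tmr (edgeR adjusted p = 0.0645) and oxt in nrxn2 tmr against wt (edgeR adjusted p = 0.0976) were no longer called.

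Leaving out wt replicate 5 reversed cga (0.95) and lhb (0.57) in nrxn2 full and cga (2.69) and lhb (1.03) in nrxn3 tmr against wt, which follows from the reads that library holds. At the other end, over the omission of each library, these log2 fold changes reached -3.42, -1.87, -1.67 and -1.41. The near-zero log2 fold change of pomca in nrxn3 tmr against wt turned positive with the pituitary transcription factors as a covariate (0.0714) and without nrxn3 tmr replicate 4 (0.39), wt replicate 3 (0.03) or wt replicate 5 (0.02), and ran from -0.39 to 0.39 over the omission of each library.

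The correlations moved with the scale. By Spearman they were 0.67 for cga with lhb, -0.14 for cga with smtlb and -0.0571 for lhb with smtlb, and with a pseudocount of 10 the smtlb pairs gave 0.41 and 0.49. When each library was left out they ranged from 0.72 to 0.91, from -0.49 to 0.31 and from -0.31 to 0.41. Without pomca, the most abundant member, the median shares of prl, lhb and smtlb were 33.3%, 19.2% and 20.9%, in place of 3.52%, 1.69% and 2.08%. The higher tshr in nrxn3 full and nrxn2 tmr, the lower th in nrxn3 full and nrxn3 tmr, the lower tac3b and pitx3 in nrxn3 tmr and the lower agrp in nrxn2 tmr kept their calls under every alternative that gave them an adjusted p.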
